A study of Mus musculus with 13 samples.

Results

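The subject is a set of 9 genes that encode subunits of the ionotropic glutamate receptors, Gria1 to Gria4 of the AMPA class and Grin1, Grin2a, Grin2b, Grin2c and Grin3a of the NMDA class. They were taken by symbol from the 16961 genes of a single-cell count table of the medial amygdala, and all 9 were present. Their values were read in the 8 cell classes that the authors wrote into the cell names, and in neurons divided by the transporter transcript they held. Cells came from 6 libraries of naive male and 7 libraries of naive female C57BL/6J mice, an inbred strain with no transgene, in a series on how the medial amygdala controls parenting differently in the sexes. The male libraries were from mice aged 9 weeks in 4 cases and 8 weeks in 2, and the female libraries from mice aged 9 weeks in 6 cases and 8 weeks in 1. All mice were housed under reversed light and singly for 1 day or more, with no further treatment. Tissue was dissociated by Act-seq, which blocks transcription during dissociation, and cells were captured by Drop-seq, in which unique molecular identifiers (UMIs) read from the 3′ ends count the mRNA molecules. The labels do not say whether libraries came from separate mice, so the spread behind every p-value is that of libraries and may be technical.

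Fast excitatory transmission in the brain runs through AMPA receptors, cation channels built of 4 subunits. NMDA receptors pass current only when glutamate is bound and the membrane is depolarised, and a working channel needs Grin1 together with Grin2 or Grin3 subunits. Which AMPA subunits a cell makes matters for calcium, because receptors that hold edited Gria2 let little calcium through. Astrocytes and oligodendrocyte precursors also carry glutamate receptors, and precursors receive synapses from neurons. Beside the pore subunits, AMPA receptors bind auxiliary proteins (the Cacng, Cnih and Shisa families) that set their gating and traffic.

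The receptor classes also differ in the bases of the pore. Windows of 33 bases around the codon at the selectivity filter were read from the GENCODE vM21 transcripts on GRCm38 for 7 members, with that codon in capitals.
Gria1: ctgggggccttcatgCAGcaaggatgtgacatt
Gria2: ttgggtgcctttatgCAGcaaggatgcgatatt
Gria3: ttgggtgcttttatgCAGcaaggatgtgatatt
Gria4: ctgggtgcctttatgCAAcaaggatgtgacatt
Grin1: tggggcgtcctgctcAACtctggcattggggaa
Grin2a: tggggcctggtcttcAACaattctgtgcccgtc
Grin2c: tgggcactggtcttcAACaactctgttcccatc
CAG and CAA encode glutamine, and it is this Gria2 codon that the enzyme Adarb1 (ADAR2) recodes to arginine in the mRNA, which closes the channel to calcium. AAC encodes the asparagine that gives NMDA receptors their calcium permeability and magnesium block. The 4 AMPA windows shared 28 to 31 of 33 bases with each other, the Grin2a and Grin2c windows shared 28, and each AMPA window shared 9 to 12 with each NMDA window shown. The Gria2 window is at chr3:80706896-80706928 on the minus strand in exon 11, and the Gria1 window at chr11:57243079-57243111 on the plus strand in exon 11. The Gria3 window is at chrX:41610250-41610282 (plus), and the Gria4 window at chr9:4464122-4464154 (minus, exon 12). The Grin1 window is at chr2:25297371-25297403 in exon 13, Grin2a at chr16:9653546-9653578 in exon 8 and Grin2c at chr11:115253848-115253880 in exon 9, all on the minus strand. Reads counted from the 3′ end carry no information on this codon, so editing was not measured.

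Of 43388 deposited cells 24539 were kept, those with 500 or more detected genes less 269 doublets. The kept cells were 3616 neurons, 6444 astrocytes, 4163 oligodendrocyte precursors, 463 newly formed oligodendrocytes (a class the cell names place between precursor and oligodendrocyte), 3893 oligodendrocytes, 3733 microglia, 1467 endothelial cells and 760 mural cells. Kept UMIs per library ran from 3735935 to 7863915, and the filter left 3616 of 10166 deposited neurons. Fixed marker lists were highest in their own class for all 8 classes, but other classes also held the 8 astrocyte markers. Their sum was 40291 CPM (defined next) in astrocytes, 5801 in mural cells, 2902 in oligodendrocyte precursors and 2812 in neurons. Among the deposited cells, 48 barcodes occurred in more than 1 library, 19 of them among kept cells. Levels are counts per 1000000 UMIs of the class in a library (CPM), as mean ± SD over 13 libraries with the lowest, median and highest library. They are not divided by transcript length and capture differs between genes, so 1 subunit is compared across classes, not 1 subunit with another. The classes were made by the authors from these cells, so differences between classes are descriptions without a test.

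Neurons led for 6 of the 9 members (Gria1, Gria2, Gria3, Grin1, Grin2a, Grin2b), oligodendrocyte precursors for Gria4 and Grin3a, and astrocytes for Grin2c. Grin2a stayed under 20 CPM in every class, so 8 members, 5 of them led by neurons, compare with all genes by the same minimum. Of all 12001 genes that reached 20 CPM in some class, 16.4% were highest in neurons, 16.4% in precursors and 9.15% in astrocytes. Oligodendrocytes, microglia, endothelial and mural cells held little of any member, with the exception of Gria4 in oligodendrocytes.

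**Figure D1:**
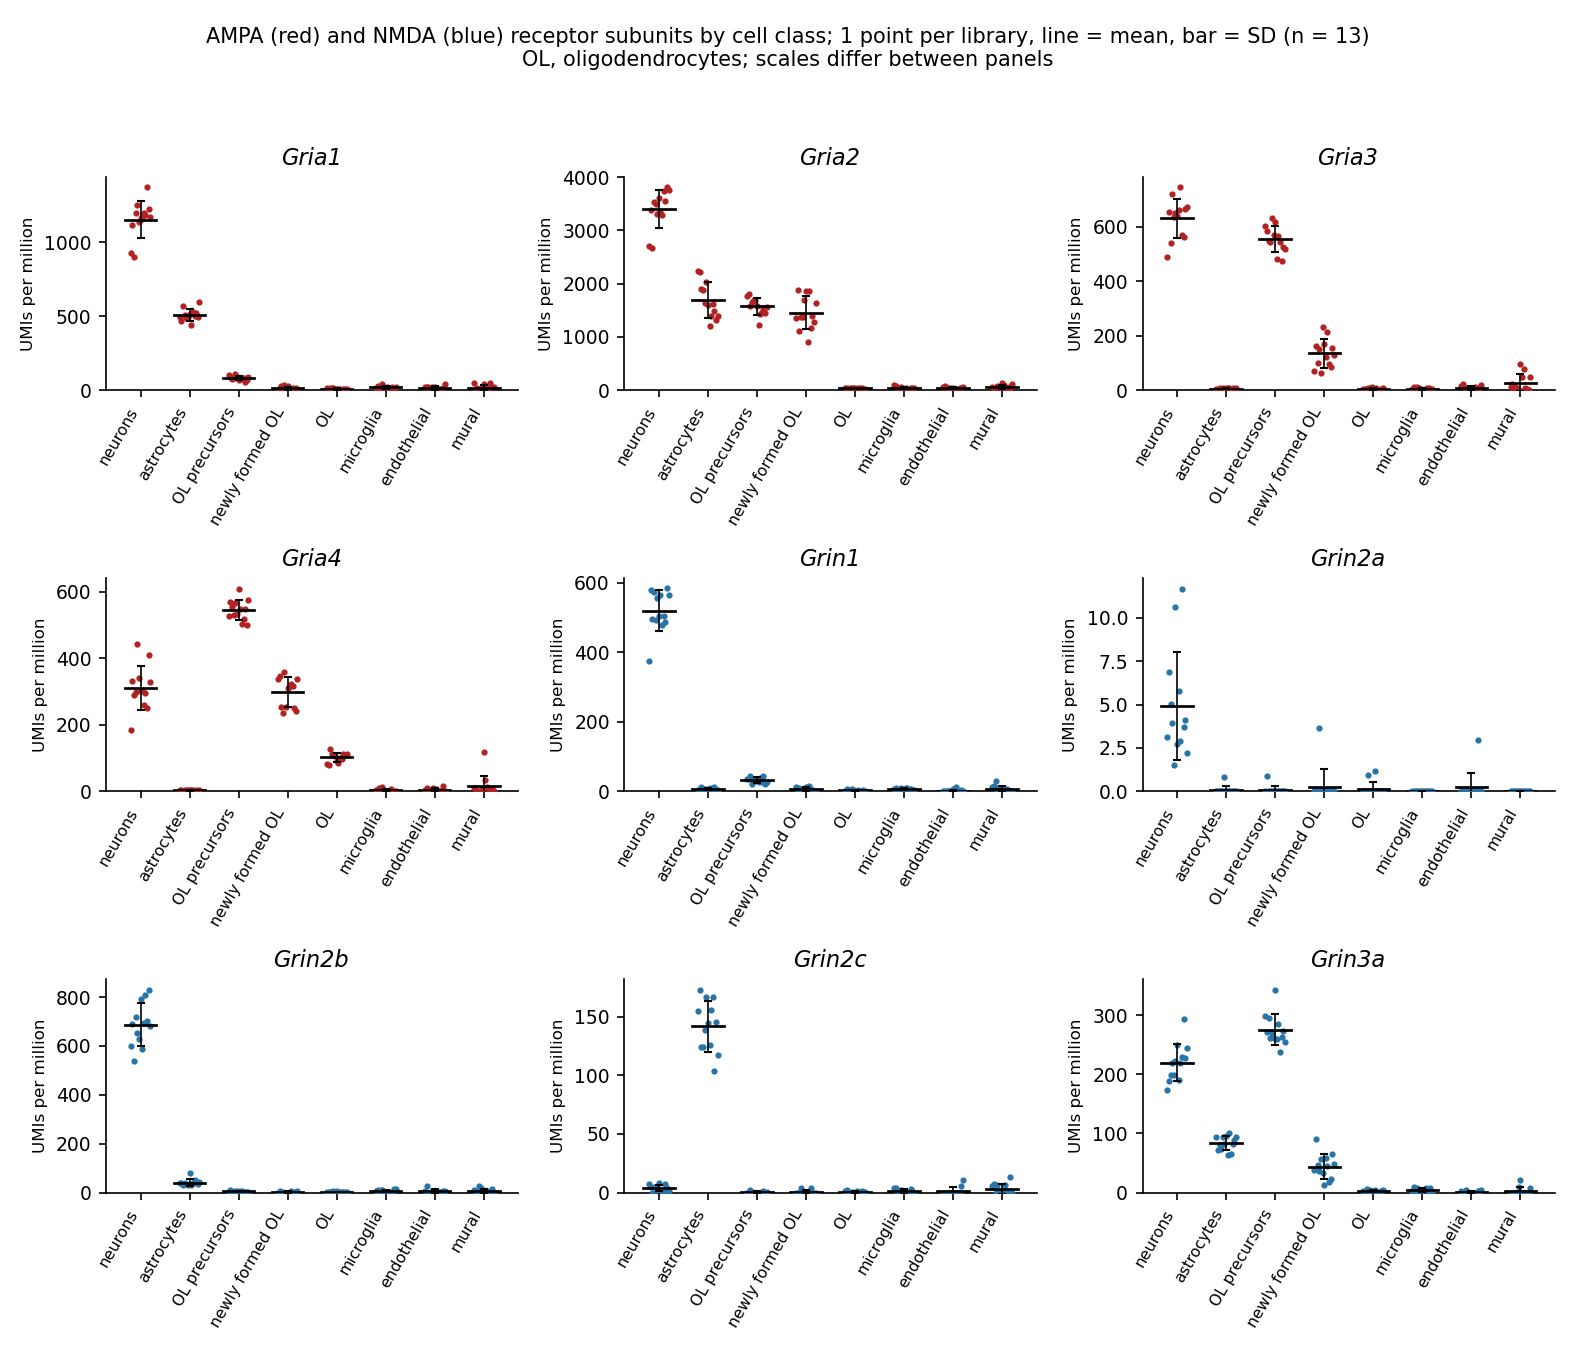
Level of each subunit (CPM, linear axes from 0) in the 8 classes, with 1 point per library, the mean as a line and the SD as a bar (n = 13). Gria2 is high in 4 classes, Grin1 and Grin2b stand out in neurons, Grin2c in astrocytes, and Gria4 and Grin3a in oligodendrocyte precursors.

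Gria2, the subunit that decides calcium entry, was the most widely shared member. It stood at 3401 ± 359 in neurons (lowest 2674, median 3493, highest 3811), 1685 ± 338 in astrocytes (1207, 1628, 2229), 1577 ± 155 in oligodendrocyte precursors (1233, 1579, 1813) and 1454 ± 313 in newly formed oligodendrocytes (911, 1383, 1886). Neurons did not overlap with any other class, while the 3 glial classes overlapped with each other and did not differ beyond their spread. The next class, mural cells, averaged 62.0 ± 38.2, so newly formed oligodendrocytes stood 23.4-fold above it with no overlap. Oligodendrocytes had 35.4 ± 6.0, the lowest of all classes. Gria2 lies on chromosome 3 (80681450 to 80802835, minus strand), and Gm25749, which was also counted, overlaps it on the same strand.

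Gria1, the subunit inserted at synapses during potentiation, was a gene of neurons and astrocytes. Neurons had 1152 ± 124 (lowest 901, median 1170.4, highest 1369.8) and astrocytes 509 ± 40.4 (439, 501, 595), with no overlap and a 2.26-fold difference. Oligodendrocyte precursors followed at 83.4 ± 13.8 (58.3, 82.2, 109), and the other 5 classes averaged 9.04 to 19.8 and overlapped from one to the next. Gria1 lies on chromosome 11 (57011387 to 57330244, plus strand).

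Gria3, on the X chromosome (41400854 to 41678601, plus strand), had another pair of leading classes, neurons and oligodendrocyte precursors. Its level was 630.5 ± 71.7 in neurons (lowest 489, median 651, highest 744) and 554 ± 48.1 in precursors (475, 548, 631). These ranges overlapped, and neurons were higher in 11 of 13 libraries. Newly formed oligodendrocytes had 135 ± 52.8, while astrocytes, which held so much Gria2, had 6.16 ± 2.98, much as microglia did at 6.13 ± 3.75.

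Gria4, known for the fast AMPA receptors of interneurons and of developing brain, was the AMPA subunit with its highest level in oligodendrocyte precursors. Precursors had 545 ± 30.9 (lowest 499, median 549, highest 609), 1.75-fold above neurons at 311 ± 65.9 (184, 303, 443) with no overlap. Newly formed oligodendrocytes, at 299 ± 44.6 (236, 315, 358), did not differ from neurons beyond the spread. Oligodendrocytes still held 102 ± 14.2 (79.9, 106, 128), above every library of microglia, which averaged 3.89 ± 3.67. Mural cells averaged 14.9 with 1 library at 118, which alone made their range overlap with that of oligodendrocytes. Gria4 lies on chromosome 9 (4417896 to 4796234, minus strand).

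Grin1, the obligatory NMDA subunit, was far higher in neurons than elsewhere. It had 520.3 ± 58.9 in neurons (lowest 374, median 505, highest 584), 16.1-fold above oligodendrocyte precursors at 32.3 ± 7.8 (20.7, 32.3, 44.9). Precursors stood above astrocytes (6.69 ± 3.0) without overlap, and all further classes lay between 1.86 and 6.58. Grin2b, the glutamate-binding subunit that dominates early in life, had 686 ± 87.7 in neurons (537, 691, 831) and 40.9 ± 12.8 in astrocytes (30.1, 39.2, 79.5). The range of astrocytes lay below that of neurons and above that of every other class, whose means were 1.84 to 6.49. Grin1 lies on chromosome 2 (25291181 to 25319187) and Grin2b on chromosome 6 (135713233 to 136173511), both on the minus strand. Reads of Grin2b and of Gm26653, which overlaps it on the opposite strand, cannot be told apart if counting ignored strand.

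Grin2a, the subunit that joins Grin2b as synapses mature, was barely detected. Neurons held 54 UMIs in all, 4.93 ± 3.12 CPM (lowest 1.53, median 3.92, highest 11.7), and no other class held more than 3 UMIs. Microglia held 0, which allows up to 0.388 CPM from a floor of 3 UMIs over the class. Annotated protein-coding transcripts of Grin2a are 4395 to 14634 bases long, and its low count was not tested against how well its 3′ end was captured.

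Grin2c, which forms NMDA receptors of cerebellar granule cells and is also known from astrocytes, was the member highest in astrocytes. It had 142 ± 21.5 there (lowest 104, median 145, highest 173) and 3.81 ± 2.63 in neurons, 37.2-fold less and without overlap. In neurons with a transporter transcript, which also held fewer astrocyte markers (sums of 898 and 949 CPM), Grin2c averaged 1.43 ± 3.36 in Slc32a1 and 1.56 ± 2.89 in Slc17a6 neurons. Grin2c lies on chromosome 11 (115249169 to 115267243) and Grin2a on chromosome 16 (9567898 to 9995560), both on the minus strand.

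Grin3a, whose protein binds glycine and lowers the calcium permeability of NMDA receptors, was highest in oligodendrocyte precursors at 275 ± 26.3 (lowest 237, median 270.4, highest 343). Neurons had 219 ± 31.4 (173, 218, 292), an overlapping range, with precursors higher in 12 of 13 libraries. Astrocytes followed at 83.3 ± 12.1 (64.1, 82.1, 101), below every neuron library, and newly formed oligodendrocytes at 43.8 ± 21.1. Grin3a lies on chromosome 4 (49661611 to 49845744, minus strand), and Ppp3r2 lies within it on the same strand.

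Members were also counted by libraries that do not overlap, among genes with a mean of 20 CPM or more in either class. Of 8 members that reached it, 7 were higher in neurons than in astrocytes and 1 lower, where 24.5% and 19.8% of all genes compared did the same. Against oligodendrocyte precursors 7 members reached it, of which 4 were higher in neurons and 1 lower, where the shares of all genes were 15.1% and 26.5%. These classes were not equally deep, with median UMIs per cell of 1753.5 in neurons, 1810.5 in astrocytes and 2669 in precursors.

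In droplet data free RNA can add neuronal transcripts to any cell, so levels in glia were set beside 10 neuron markers (Snap25, Syt1, Stmn2 and others). In astrocytes these markers stood at a median of 3.26% of their neuron level and at 7.47% at most. Gria2 stood at 50.7% there, Gria1 at 44.6% and Grin3a at 39.1%, all above the highest marker, while Grin2b stood at 5.93%, Grin1 at 1.21% and Gria3 at 0.991%, within the markers' range. In microglia, where the marker median was 2.99%, every member but Grin2c stood at 0 to 2.23% of its neuron level. In oligodendrocytes the marker median was 1.94%, and Gria4 at 32.6% was above the highest marker (26.6%), while Gria2 stood at 1.06%. In precursors the marker median was 8.11% but 1 marker reached 42.9%, a level that Gria2 (47.1%), Gria3 (88.0%), Gria4 (171%) and Grin3a (127%) exceeded and Grin1 (6.09%) and Gria1 (7.40%) did not.

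The share of cells with a UMI was read after every cell had been thinned to 1000 UMIs, which left out shallower cells (776 neurons, 1078 astrocytes, 493 precursors and 574 microglia). At that depth 92.5% of neurons, 81.1% of astrocytes, 92.1% of precursors and 76.4% of newly formed oligodendrocytes held an AMPA subunit UMI, against 13.2% of oligodendrocytes and 5.73% of microglia. An NMDA subunit UMI was held by 66.7% of neurons, 22.6% of astrocytes, 25.7% of precursors and 1.68% of microglia. Gria2 was detected in 70.5% of thinned astrocytes (79.5% unthinned) and in 3.48% of thinned microglia (7.47% unthinned, median depth 1788 UMIs). Grin3a was detected in 23.2% of thinned precursors (47.5% unthinned) and 0.475% of thinned microglia, and Grin2c in 13.5% of thinned astrocytes (23.6% unthinned) and 0.0950% of thinned microglia. Microglia served for comparison because they held little of any member, and whether they make these subunits was not tested.

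The mix of subunits within a receptor family differed from class to class. Of all AMPA subunit UMIs in neurons, 61.9% ± 1.4 were Gria2, 21.0% ± 1.1 Gria1, 11.5% ± 1.0 Gria3 and 5.64% ± 0.97 Gria4 (SD, n = 13). Astrocytes were reduced to a pair of subunits, with 76.0% ± 3.9 Gria2 and 23.6% ± 3.8 Gria1, and under 0.3% for each of the others. Precursors nearly lacked Gria1 (3.02% ± 0.39) and had 57.1% ± 1.9 Gria2, 20.1% ± 1.1 Gria3 and 19.8% ± 1.5 Gria4. Newly formed oligodendrocytes had 76.1% ± 3.3 Gria2 and 16.1% ± 3.4 Gria4, and oligodendrocytes 67.4% ± 4.2 Gria4 and 23.5% ± 3.7 Gria2, the only class in which Gria2 was not the largest share. These shares are of UMIs and not of protein, and a gene whose 3′ end is captured well weighs more in each.

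The NMDA mix differed between neurons, astrocytes and precursors as well. Neurons had 47.8% ± 3.0 Grin2b, 36.3% ± 3.3 Grin1 and 15.3% ± 1.6 Grin3a. Astrocytes had 51.9% ± 5.2 Grin2c, 30.7% ± 4.0 Grin3a, 14.9% ± 3.5 Grin2b and 2.54% ± 1.34 Grin1, and precursors 88.1% ± 2.6 Grin3a, 10.3% ± 2.1 Grin1 and 1.46% ± 0.92 Grin2b. Grin1 had the smallest of the 4 UMI shares listed for astrocytes, but such shares also depend on how well each 3′ end is captured. The level of Grin1 in astrocytes was within the range of neuron markers there. For every 100 AMPA UMIs there were 26.2 ± 1.3 NMDA UMIs in neurons, 12.6 ± 2.0 in astrocytes, 11.3 ± 1.1 in precursors and 2.84 ± 1.09 in newly formed oligodendrocytes. Microglia, with 597 AMPA UMIs in all, had AMPA shares within 4.67 points of those of neurons and 24.1 ± 8.5 NMDA UMIs per 100.

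**Figure D2:**
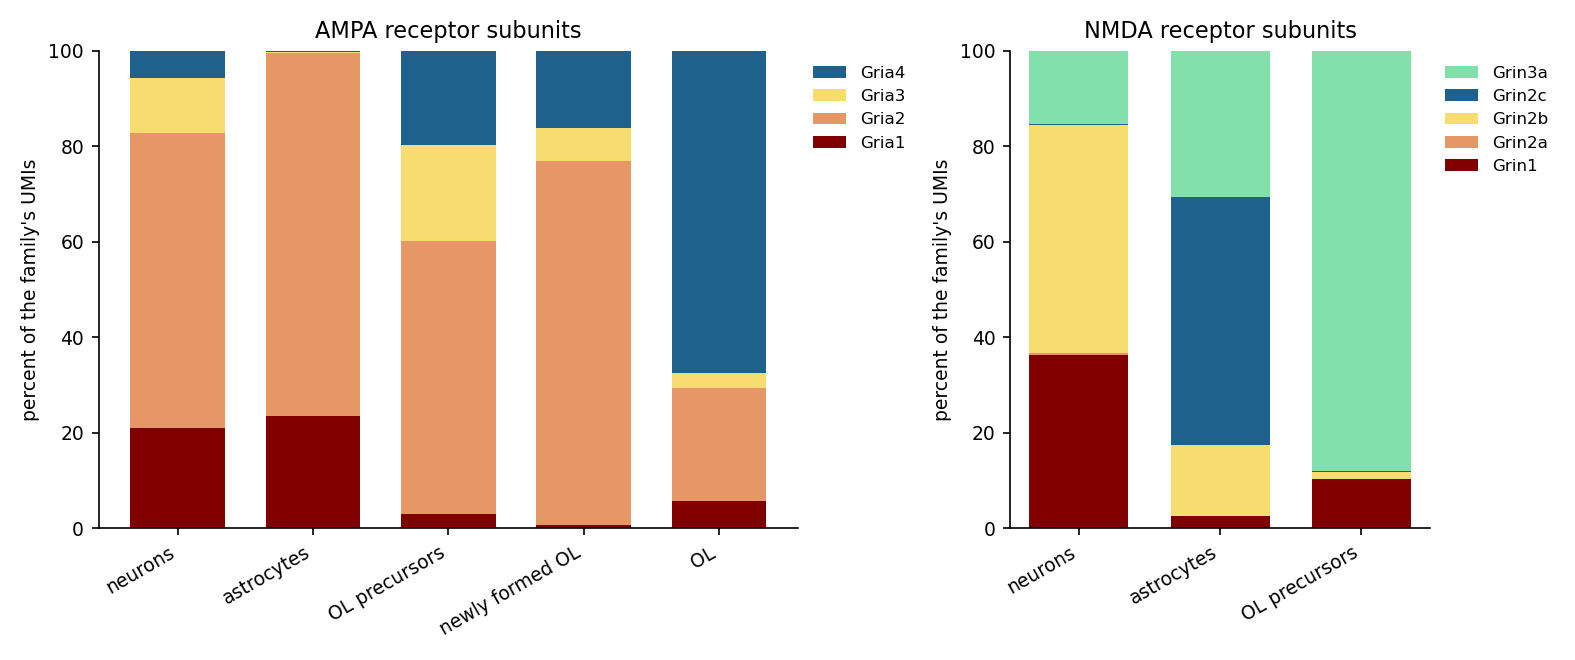
Mean share of each subunit among the UMIs of its family (percent, stacked to 100, mean over libraries). AMPA subunits are shown for neurons, astrocytes, oligodendrocyte precursors, newly formed oligodendrocytes and oligodendrocytes. NMDA subunits are shown for neurons, astrocytes and precursors. Gria3 and Gria4 are nearly missing from astrocytes and Gria1 from precursors, and Grin2c fills 51.9% of the NMDA UMIs of astrocytes, Grin3a 88.1% of those of precursors.

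Along the oligodendrocyte lineage the members were lower from different stages on, by class means. Between precursors and newly formed oligodendrocytes, 5 of the 6 members that reached 20 CPM in either were higher in precursors with no overlap (Gria1, Gria3, Gria4, Grin1, Grin3a), where 13.4% of all genes compared were. Gria2 overlapped between these classes. The 10 neuron markers differed in the same direction, with a sum of 1005 CPM in precursors and 291 in newly formed oligodendrocytes, and a median of 8.11% and 1.89% of their neuron level. Gria1 stood at 7.40% of its neuron level in precursors and 1.04% in newly formed cells, and Grin1 at 6.09% and 0.988%, both below the marker median in each class. The part of neuronal RNA in these differences was not tested. Between newly formed oligodendrocytes and oligodendrocytes, Gria2, Gria3, Gria4 and Grin3a were higher in the newly formed cells with no overlap, all 4 members that reached 20 CPM in either class, where 15.2% of all genes compared were. The other 5 members were below that level in both. Gria2 differed most in that step, with 1454 ± 313 in newly formed oligodendrocytes and 35.4 ± 6.0 in oligodendrocytes, while Gria4 stood 2.93-fold higher in the newly formed cells. Newly formed oligodendrocytes were few, 12 to 56 cells a library, and deeper (median 4061 UMIs) than precursors (2669) and oligodendrocytes (3182).

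**Figure D3:**
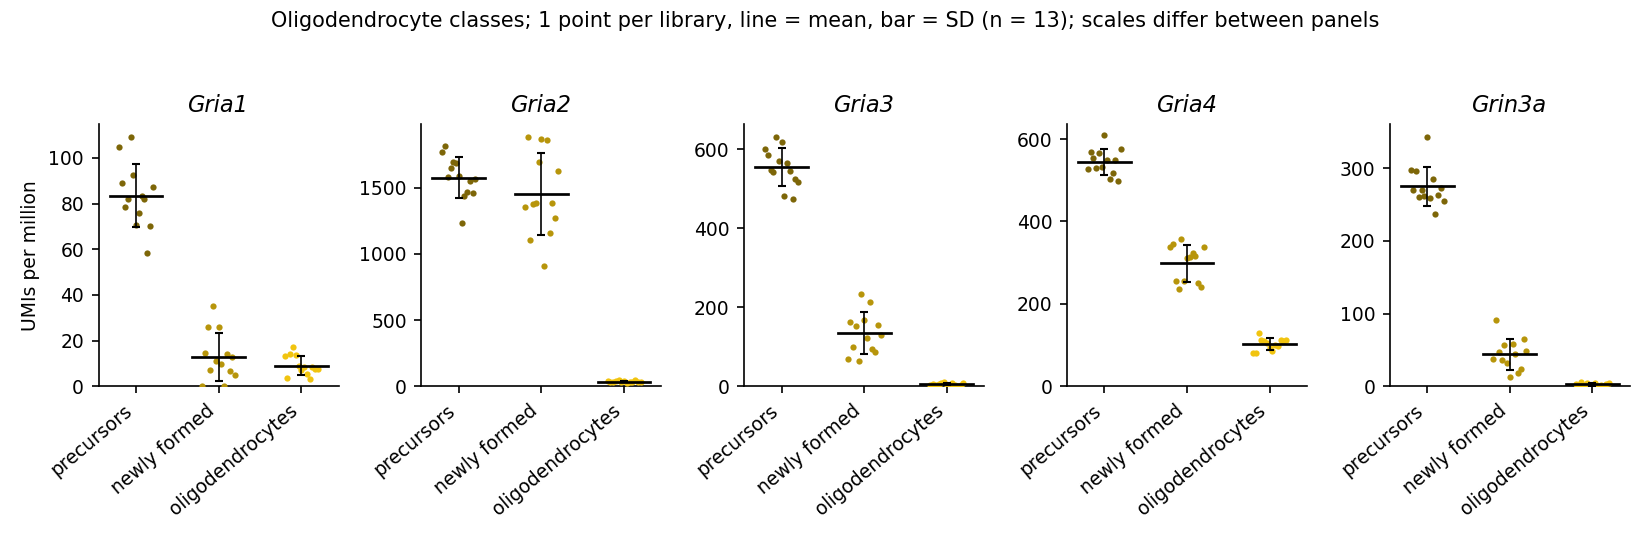
Levels (CPM, linear axes from 0) of members in oligodendrocyte precursors, newly formed oligodendrocytes and oligodendrocytes, with 1 point per library, the mean as a line and the SD as a bar (n = 13). Gria2 is as high in newly formed cells as in precursors and near 0 in oligodendrocytes, while Gria4 is lower at each stage and remains at 102 in oligodendrocytes.

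Other genes of the receptor complex were read from lists chosen with earlier results of these data known. Of 15 AMPA auxiliary genes, 14 reached 20 CPM in some class, 9 of them highest in neurons, 4 in precursors and 1 in astrocytes. Cacng4, of the TARP family that accompanies AMPA receptors to the membrane, averaged 1663 in precursors and 204 in neurons, and Frrs1l, which helps assemble them, 659 in neurons. Shisa9, which slows recovery from desensitisation, was highest in astrocytes at 245 and reached 175 in neurons, while Cnih2, an export factor, had 169 in neurons and 3.69 in astrocytes. Of 16 scaffold and signalling genes, 15 reached that level and 10 were highest in neurons, led by the kinase subunits Camk2b (382) and Camk2a (343) and the trafficking ATPase Nsf (368). Dlg1, a scaffold, was highest in oligodendrocytes at 279. Adarb1, the enzyme that edits Gria2, averaged 98.1 in neurons, 40.7 in precursors and 9.13 in astrocytes, and its relative Adar 78.7 in neurons, while Adarb2, which has no known editing activity, averaged 95.2 in precursors. Kainate and delta receptor genes divided between neurons (3 of 7), precursors (3) and newly formed oligodendrocytes (1), with Grik2 at 202 in neurons, Grik1 at 125 in neurons, Grid1 at 113 in precursors, and Grik5 at 151 in neurons and 152 in precursors. Among genes that handle the co-agonist D-serine, Slc7a10 (740.2) and Slc1a4 (228) were highest in astrocytes and Srr, the enzyme that makes it, in precursors (48.9), with Dao not in the table.

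For each member the genes with the most similar profile were ranked by Pearson's r of log2(CPM + 5) over 104 points (8 classes in 13 libraries, which share library and depth), among 11993 genes. Gria1 was closest to Gabra4 (r = 0.95), Lgi1 (0.94) and Gabrb1 (0.93), and Gria2 to Nrcam (0.97) and Shisa9 (0.96). Gria3 was closest to Lrrtm1 and Slc35f1 (0.96 each) and E130309F12Rik (0.95), and Gria4 to Tmem132b (0.97), Sorcs1 (0.95) and Gfra1 (0.94). Grin1 went with Tmem130 (0.95) and Gpr26 (0.94), Grin2b with Dlx1, Npy (0.93 each) and Sv2b (0.93), and Grin2a with Kcnj4 (0.87), Esyt3 and Frem3 (0.86 each). Grin2c was closest to Otx1, Aqp9 and Gm4491 (0.96 each), and Grin3a to Lrrn2, Arxes1 (0.96 each) and Ptprt (0.96). Among the members themselves the most similar pair was Gria2 and Grin3a (r = 0.93) and the least similar Gria4 and Grin2c (r = -0.35). These correlations are descriptions and carry no p.

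Neurons were then divided by transporter transcript. Slc32a1 loads GABA into vesicles and marks inhibitory neurons, and Slc17a6 loads glutamate and marks excitatory ones. There were 1373 neurons with Slc32a1 and no Slc17a6 counts (66 to 169 per library, median 2275 UMIs) and 1254 with Slc17a6 and no Slc32a1 counts (52 to 141, median 2140.5 UMIs), while 52 held both and 937 neither. AMPA subunits other than Gria2 were higher in the Slc32a1 neurons and the tested NMDA subunits did not pass. Of the 9 members 7 passed the expression filter, and 3 were higher in Slc32a1 neurons (Gria1, Gria3, Gria4; edgeR's quasi-likelihood test with the library as a block, Benjamini-Hochberg over 8587 genes, threshold 0.05). Of all genes tested 15.8% passed, 7.77% as higher in Slc32a1 neurons and 8.02% as lower.

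Gria1 had a lowest, median and highest library of 1084, 1566 and 2009 in Slc32a1 neurons, against 727, 840.2 and 1177 in Slc17a6 neurons. It was higher in Slc32a1 neurons in all 13 libraries although the ranges overlapped, with means of 1539 ± 255 and 882 ± 121 and a log2 difference of 0.84 ± 0.08 (SE; edgeR adjusted p = 4.6e-13). Gria4 had 241, 406 and 674 in Slc32a1 neurons, against 186, 244 and 339 in Slc17a6 neurons. It too was higher in all 13 libraries with overlapping ranges, at log2 0.83 ± 0.09 (edgeR adjusted p = 4.6e-11). Gria3 had 558, 786 and 1007 in Slc32a1 neurons, against 398, 543 and 690.4 in Slc17a6 neurons. Its log2 difference was 0.55 ± 0.08 (edgeR adjusted p = 4.8e-07), again in 13 of 13 libraries.

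Gria2 averaged 3825 ± 535 in Slc32a1 and 3555 ± 500.5 in Slc17a6 neurons, log2 0.15 ± 0.07, higher in 10 of 13 libraries (edgeR adjusted p = 0.132). Grin1 averaged 599.8 ± 94.9 in Slc32a1 and 531 ± 50.9 in Slc17a6 neurons, log2 0.20 ± 0.08, higher in 11 of 13 libraries (edgeR adjusted p = 0.0825). When each neuron was thinned to 1000 UMIs both passed, Gria2 at log2 0.17 (edgeR adjusted p = 0.0478) and Grin1 at 0.28 (edgeR adjusted p = 0.0357), and Grin1 also passed without male replicate 1 (edgeR adjusted p = 0.0180). Grin2b averaged 725 ± 119 in Slc32a1 and 769 ± 173 in Slc17a6 neurons (log2 -0.02 ± 0.09, edgeR adjusted p = 0.896), and Grin3a 238 ± 47.9 and 226 ± 64.2 (log2 0.14 ± 0.10, edgeR adjusted p = 0.406). Grin2a, with 26 UMIs in Slc32a1 and 21 in Slc17a6 neurons, and Grin2c, with 7 in each, were too rare to test.

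**Figure D4:**
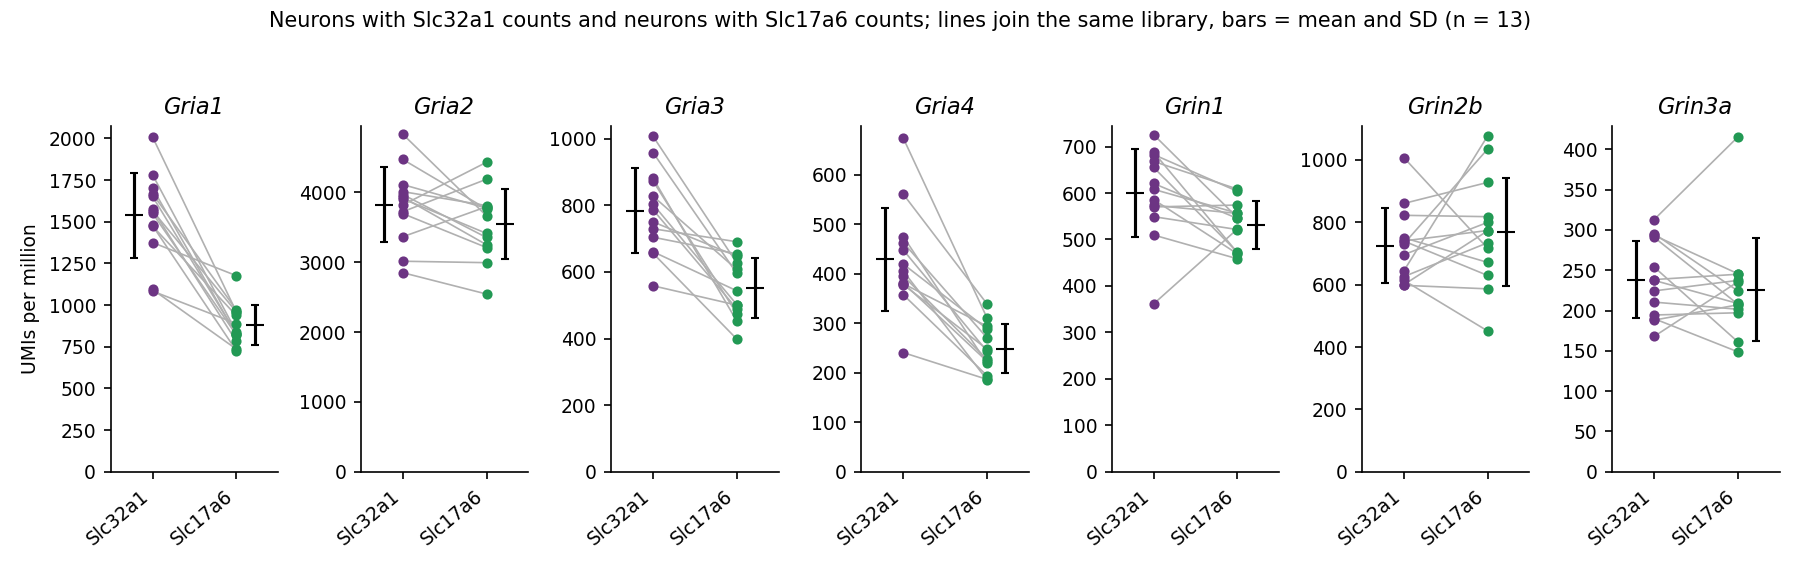
Level (CPM, linear axes from 0) of the 7 tested members in Slc32a1 and Slc17a6 neurons, with lines joining the groups of a library and bars for mean and SD (n = 13). Every line of Gria1, Gria3 and Gria4 runs higher on the Slc32a1 side, while those of Grin2b and Grin3a cross.

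The mix of subunits differed between these neurons too. Gria1 made up 23.3% ± 1.3 of AMPA UMIs in Slc32a1 neurons and 16.9% ± 2.0 in Slc17a6 neurons, a difference of 6.40 points in the same direction in 13 of 13 libraries. Gria2 made up 58.2% ± 2.1 in Slc32a1 neurons and 67.7% ± 2.4 in Slc17a6 neurons, a difference of -9.58 points in 13 of 13 libraries. Both differences had an exact sign-flip permutation p of 0.000244, the smallest that 13 pairs can give, and 0.000814 after adjustment over 10 values. Gria4 had 6.55% ± 1.43 in Slc32a1 and 4.74% ± 0.65 in Slc17a6 neurons (12 of 13 libraries, exact permutation adjusted p = 0.00122). Gria3, with 12.0% ± 1.4 and 10.6% ± 1.5, passed with 11 of 13 libraries (exact permutation adjusted p = 0.0420), a call lost in 10 of the 13 tests that left out 1 library (adjusted p = 0.0518 to 0.0801, kept without male replicates 1 and 2 and female replicate 5). NMDA UMIs per 100 AMPA UMIs were 23.9 ± 1.7 in Slc32a1 neurons and 29.2 ± 2.1 in Slc17a6 neurons, lower in Slc32a1 neurons in 13 of 13 libraries (exact permutation adjusted p = 0.000814). The shares of Grin1 (38.2% ± 4.1 and 35.1% ± 3.8) and Grin2b (46.2% ± 3.2 and 49.7% ± 4.9) did not pass, with exact permutation adjusted p-values of 0.0553 and 0.0701. Shares within a family sum to 100, so a larger Gria1 share lowers the others by construction.

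Markers of other cells were compared in the same groups. The 8 astrocyte markers summed to 327 to 2189 CPM in Slc32a1 and 393 to 1856 in Slc17a6 neurons, and the 8 oligodendrocyte markers to 251 to 871 and 313 to 1261. The 8 precursor markers summed to 299.6 to 555 CPM in Slc32a1 and 264 to 529 in Slc17a6 neurons, higher in Slc32a1 neurons in 11 of 13 libraries, against 13495 in precursors, the glia rich in Gria3 and Gria4. The 8 endothelial markers summed to 48.6 to 123 in Slc32a1 and 12.7 to 84.3 in Slc17a6 neurons, higher in Slc32a1 neurons in 13 of 13. The 6 markers of newly formed oligodendrocytes ran the other way in sum, with 64.4 to 147 in Slc32a1 and 114 to 228 in Slc17a6 neurons. Their sum was lower in Slc32a1 neurons in 12 of 13 libraries, although 4 of the 6 genes had a higher mean there. Microglial markers summed to 49.3 to 404 in Slc32a1 and 52.5 to 142 in Slc17a6 neurons, and mural markers to 3.22 to 63.6 and 6.47 to 36.3. The 10 neuron markers summed to 14481 to 18663 in Slc32a1 and 13169 to 15139 in Slc17a6 neurons, higher in Slc32a1 neurons in 12 of 13 libraries although 8 of the 10 genes were higher in Slc17a6 neurons. The part of these in the differences above was not tested.

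Genes of the lists were tested in the same fit, where 7.77% of all genes were higher in Slc32a1 neurons and 8.02% lower. Of 7 kainate and delta receptor genes, 4 were higher in Slc32a1 neurons and 0 lower (median log2 of the list 0.58, against 0.00 over all genes tested). Grik3 had 115 ± 31.1 in Slc32a1 and 13.9 ± 8.7 in Slc17a6 neurons (log2 3.11 ± 0.19), Grik1 205 ± 45.2 and 73.5 ± 30.7 (1.49 ± 0.17), Grik2 280.3 ± 55.4 and 155 ± 43.1 (0.86 ± 0.12), and Grid1 124 ± 18.9 and 84.4 ± 27.5 (0.58 ± 0.12). Of 15 auxiliary genes 3 were higher in Slc32a1 neurons and 1 lower (median log2 0.20): Cacng2 at 0.42, Cacng3 at 0.55 and Shisa7 at 0.56, and Shisa9 at -0.63 with 142 ± 43.0 in Slc32a1 and 224 ± 47.8 in Slc17a6 neurons. Of 15 tested scaffold genes 4 were higher (Grip1 0.93, Dlgap1 0.56, Shank2 0.51, Camk2a 0.37) and Camk2b was lower (-0.32; median 0.06). Adarb2 was higher (1.15 ± 0.19) among 3 editing genes. Slc7a10, an astrocyte transporter here, was lower in Slc32a1 neurons (10.8 ± 11.9) than in Slc17a6 neurons (33.1 ± 16.7), at log2 -1.56. All of these passed edgeR's adjusted p of 0.05 over all genes.

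Between the sexes a single member in a single class passed, Gria2 in astrocytes. Over the 8 classes 26 combinations of member and class could be tested. In astrocytes 113 of 9778 genes passed (1.16%), 0.511% as higher in males, and in the other classes 0.0623% (neurons), 0.131% (precursors), 0.0889% (newly formed oligodendrocytes), 0.32% (oligodendrocytes), 0.362% (microglia), 1.19% (endothelial cells) and 0.123% (mural cells) of genes did. No gene of the 5 lists passed in any class, in 146 tests with edgeR.

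Gria2 in astrocytes had 2229, 2218, 1892, 1876, 1633 and 2040.1 CPM in male replicates 1 to 6, against 1602, 1207, 1388, 1628, 1481, 1316 and 1398 in female replicates 1 to 7. Every male library lay above every female one, but male replicate 5 stood only just above female replicate 4. The means were 1981 ± 229 in males and 1431 ± 151 in females, a log2 difference of 0.44 ± 0.08 (SE; edgeR adjusted p = 0.000360). The difference was also found in mice aged 9 weeks alone (log2 0.51), in astrocytes with 0 Gfap UMIs (0.36) and with a Gfap UMI (0.69), and after thinning to 1000 UMIs (0.41), all past the threshold and chosen after the result had been seen. It passed in each of 21 other settings (cell and gene filters, scaling, DESeq2, limma voom, a replicate block, single libraries left out), at adjusted p-values up to 0.00490, each from the tool of that setting. Without both male replicates 1 and 2, the highest libraries, it was 0.34 ± 0.08 and missed the threshold (edgeR adjusted p = 0.0533).

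After thinning, 74.9% ± 2.2 of male and 65.2% ± 3.9 of female astrocytes held a Gria2 UMI. Gfap, a marker of reactive and fibrous astrocytes, was read without thinning in all kept astrocytes. It was held by 22.4% ± 5.0 of male and 22.6% ± 3.1 of female astrocytes. The 8 astrocyte markers summed to 37718 to 41523 in males and 38766 to 43913 in females. The 10 neuron markers summed to 184 to 344 in male and 151 to 285 in female astrocytes, a mean difference of 44.8, and neurons held 22.9 Gria2 UMIs for every 100 of those marker UMIs. The male minus female difference of Gria2 in astrocytes was 549.8. Median UMIs per astrocyte ran from 1677 to 2131 in male and 1430 to 2154.5 in female libraries.

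**Figure D5:**
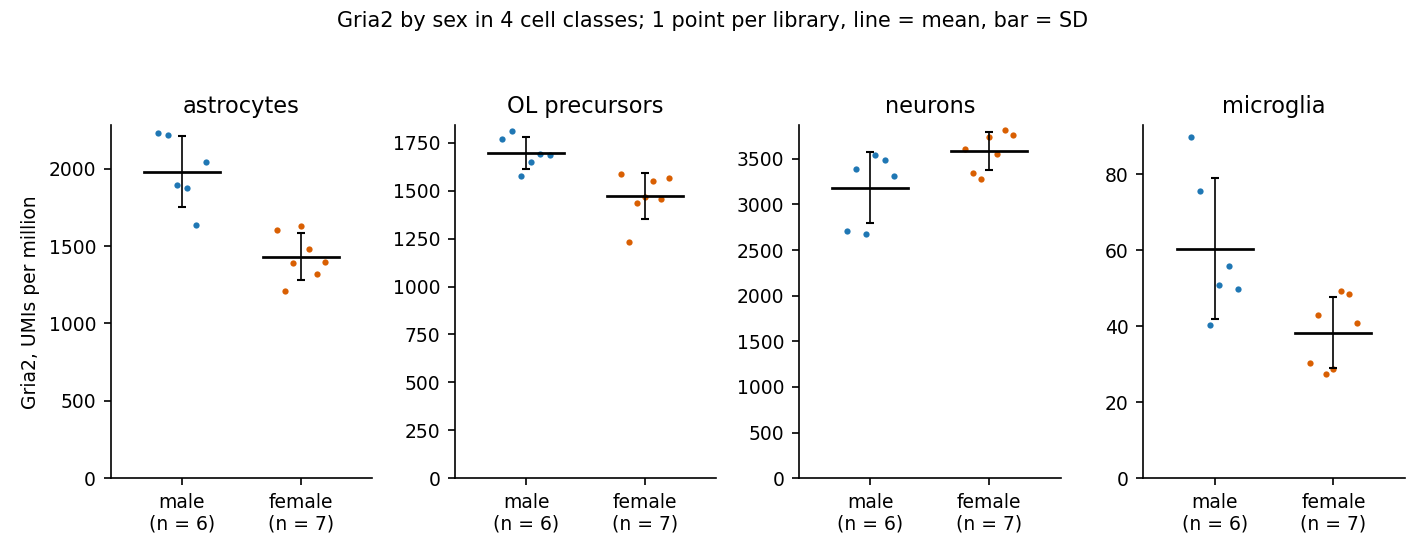
Gria2 level (CPM, linear axes from 0) in male (n = 6) and female (n = 7) libraries in 4 classes, with 1 point per library, the mean as a line and the SD as a bar. The male and female points separate in astrocytes (1981 and 1431 on average) and overlap in the other classes shown.

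The share of Gria2 among AMPA UMIs of astrocytes was 79.3% ± 2.5 in males (76.5 to 82.5) and 73.1% ± 2.2 in females (69.7 to 76.4). Gria1 made up 20.3% ± 2.4 in males and 26.3% ± 2.1 in females, while its own level was 503 ± 35.7 in males and 514 ± 46.2 in females and did not pass (log2 -0.06 ± 0.08, edgeR adjusted p = 0.861). Both shares had an exact permutation p of 0.00117 over 1716 assignments of sex, the smallest possible, and 0.0157 after adjustment over 27 shares. Gria1 and Gria2 made up nearly all AMPA UMIs of astrocytes, so a rise of one share lowers the other and both calls reflect the same difference. For the same number of AMPA UMIs, 100, male astrocytes held 10.9 ± 1.0 NMDA UMIs and female ones 14.0 ± 1.4, given as a description. Of the other shares tested only that of Gria4 in precursors passed, with 18.7% ± 0.8 in males and 20.7% ± 1.4 in females (exact permutation adjusted p = 0.0420), and that call was lost in 12 of the 13 tests that left out 1 library (adjusted p = 0.0584 to 0.0909, kept without male replicate 3).

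In the other classes no member passed, the lowest adjusted p being 0.134 for Gria2 in microglia (60.3 ± 18.5 in males and 38.2 ± 9.3 in females, log2 0.66 ± 0.19, edgeR). Microglia held 22.2 Gria2 UMIs per 100 neuron-marker UMIs, against 22.9 in neurons, and their marker sum averaged 243 in males and 197 in females. In precursors Gria2 averaged 1699 ± 83.7 in males and 1472 ± 121 in females (log2 0.20 ± 0.06, edgeR adjusted p = 0.319). In neurons it averaged 3185 ± 392 in males and 3586 ± 207 in females (log2 -0.20 ± 0.12, edgeR adjusted p = 0.818). Male replicates 1 and 2 were the highest libraries for Gria2 in astrocytes, precursors and microglia, while male replicates 1 and 3 were the lowest in neurons. Grin3a in neurons had 199.8 ± 18.5 in males and 236 ± 31.4 in females (log2 -0.26 ± 0.13, unadjusted p = 0.0423, edgeR adjusted p = 0.789), and Gria1 in precursors 92.7 ± 12.2 in males and 75.4 ± 9.9 in females (log2 0.29 ± 0.11, edgeR adjusted p = 0.620).

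Whether the sex difference of Gria2 itself differed between classes was fitted with class by sex terms, chosen after the astrocyte result had been seen. The astrocyte difference exceeded that of neurons by log2 0.63 ± 0.15 (edgeR, unadjusted p = 0.000140, adjusted p = 0.269, with 0 of 12130 genes past the threshold and 724 at an unadjusted p under 0.05). Against precursors the term was 0.24 ± 0.07 (edgeR adjusted p = 0.145, where 0.106% of genes passed) and against microglia -0.22 ± 0.18 (edgeR adjusted p = 0.896, where 0.124% passed). Gria2 was therefore not shown to differ by sex in astrocytes more than in these classes after adjustment. Between Slc32a1 and Slc17a6 neurons, 0 of the 7 tested members differed in their sex difference by edgeR, by DESeq2 or by limma voom. Their unadjusted edgeR p was at least 0.0951 (3 of 8587 genes passed, 0.0349%).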

How the data were processed

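The values were deposited as UMI counts, whole numbers with no normalization, of genes by cells, and the cell names gave library and class. The submitters' processing notes name STAR 2.5.0a, bcl2fastq 2.17.1.14 and the mm10 build. How UMIs were collapsed, the annotation and the strand setting are not given in the sources used here. Gene positions came from GENCODE vM21.

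Cells with at least 500 genes were kept and Scrublet doublets (1.08%) removed, in Python 3.11.15 with scanpy 1.11.5. The table held 0 mitochondrial genes. CPM of a class are its counts per 1000000 UMIs. Counts were summed per library and class, so the library was the replicate. Sums with at least 10 cells were compared with edgeR 4.0.16 (quasi-likelihood, TMM, filterByExpr, robust, two-sided) in R 4.3.3, adjusted by Benjamini-Hochberg over all genes, threshold 0.05. DESeq2 1.42.0 and limma 3.58.1 (voom) were alternatives. Shares were compared by exact permutation over libraries. The edgeR comparisons of male with female neurons and of Slc32a1 with Slc17a6 neurons were checked on simulated data. The other comparisons were not simulated. Intervals and floors cover counting error only (3 UMIs for a count of 0, 95%).

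Named were all 9 members, the 3 most similar genes of each (2 of these genes and 1 pore window are not reported here), list genes past the threshold in a test and, for levels, up to 4 of each list by highest class mean. Shisa9 and Slc7a10 counted under both parts. Members, lists and tests were chosen with earlier results of these data known.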

Additional observations from a re-analysis of the deposited data

Results flagged for a closer look

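In 4 of 84 groups of libraries 1 library stood far from the rest of its group, where chance gives about 1 in 20. Gria1 in neurons was 1369.8 CPM in female replicate 5, against 1157 to 1221 in the other females. Gria2 in oligodendrocyte precursors was 1233 in female replicate 2, against 1437 to 1590.2 in the other females. Grin2b in astrocytes was 79.5 in female replicate 1, against 30.9 to 49.4 in the other females. Grin3a in Slc17a6 neurons was 415 in female replicate 5, against 202 to 246 in the other females.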

How the results depend on the processing

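With no filter on cells the oligodendrocyte shares of Gria2 and Gria4 were 28.7% and 59.8%, and with doublets kept 28.2% and 60.6%. The count of members differing between Slc32a1 and Slc17a6 neurons was 5 when cells were thinned to 1000 UMIs and 3 to 4 without single libraries (4 without male replicate 1). Grin2b, which did not pass, turned to log2 0.031 (at least 1000 genes), 0.021 (at least 2000 UMIs) and 0.036 (thinned), and ranged from -0.075 to 0.035 when 1 library was left out, turning without female replicates 1 and 6. Of mix values between these neurons 5 passed, 6 with transporter counts above 1, 7 with no filter and 4 to 6 without single libraries. Gria2 in newly formed oligodendrocytes (male minus female log2 0.04) turned without male replicates 2 and 6 and female replicates 2 and 4 (-0.058 to 0.10), far from passing. Gria2 in astrocytes fell to 0.34 (edgeR adjusted p = 0.0533) without both male replicates 1 and 2. With a replicate block it was 0.43 and 1 member passed, as without it. In neurons the deviations of same-numbered libraries correlated at -0.058 to 0.084, with 1 of 6 closest to its own number. The other classes were not checked for this. The causes were not tested. Levels and the other shares moved by less than the spread between libraries. Depth limits Grin2a and the NMDA mix of newly formed oligodendrocytes (130 UMIs, as few as 2 in a library), oligodendrocytes, microglia, endothelial and mural cells, which rest on 31 to 149 UMIs.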
